A study of Macaca mulatta with 6 samples.

Results

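Potassium channel genes other than the GIRK subunits were followed in 6 RNA libraries of cortical neurons from male rhesus macaques (Macaca mulatta), 3 of them from the morphine group and 3 from the saline group. The members were all genes of the deposited table whose symbol starts with KCN, without the GIRK genes KCNJ3, KCNJ5, KCNJ6 and KCNJ9, that had a mean of at least 10 normalized counts over the 6 libraries. There were 60 of them, among 16595 genes at that level and 23191 genes in the table. The table held 64 KCN symbols in all, of which 3 were GIRK genes and 1, KCNG4, fell under the minimum with 5 reads in saline library 2 and 0 in each of the other libraries. At a count of 0, a true level of up to 3 reads per library is possible.

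Morphine, an opioid that acts mainly at the mu receptor, was given by subcutaneous injection 3 times daily over 90 days, at 3 mg/kg in the first week and at 15 mg/kg from day 29. Control animals received saline by the same route and schedule at 0.5 mL/kg. The animals were 3 to 4 years old, and the protocol names 4 of them, 2 per group, while each group has 3 libraries whose descriptions carry 1 shared code. Some libraries of a group therefore share an animal, p-values over libraries are too small as tests over animals, and treatment cannot be told apart from differences between animals.

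Potassium channels let potassium leave or enter the cell along its gradient and so set the resting potential, the shape of the action potential and the rate of repetitive firing. Voltage-gated pore subunits (KCNA to KCND, KCNH and KCNQ) assemble as tetramers and are joined by accessory subunits. Inward rectifiers (KCNJ) and tandem-pore leak channels (KCNK) act near rest, and calcium- or sodium-activated channels (KCNM, KCNN, KCNT) follow ion entry during activity. Mu receptors are best known for opening GIRK channels, which are left out here. The genes below are other potassium channel genes with a KCN symbol in the deposited table, including the inward rectifiers by which astrocytes take up potassium, and potassium channel genes without such a symbol there were not analysed here.

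Of the 60 genes, 7 rose and 9 fell with morphine, and 44 did not pass the test. The test was limma on log2(normalized count + 1), with Benjamini-Hochberg adjustment over all 16595 genes and a threshold of 0.05 on the adjusted p. A fold change on that scale understates the change of low genes. That is 26.7% of the members, where 27.9% of all genes tested were called, 12.9% rising and 15.0% falling. The share of changed potassium channel genes was thus close to the share among all genes. The median log2 fold change of the members was 0.05 and that of all genes 0.01, and the median absolute log2 fold change was 0.25 for the members and 0.26 for all genes. The 3 morphine values lay above all 3 saline values for 11 members and below them for 18, which together is 48.3%, against 48.7% of all genes whose groups do not overlap. For all genes tested these shares were 24.1% above and 24.6% below. With edgeR's quasi-likelihood test on the recovered reads 7 members rose and 14 fell, which is 35.0% against 34.0% of all genes, and 14 of the 16 limma calls were shared. In that test 2700 of all genes rose and 2936 fell. The subset that the authors deposited, with changes of at least 1.5 fold, held 9 of the 60 members (15.0%, against 12.5% of the genes tested). By the fold changes of the authors' deposited table, 1 of these 9 was higher with morphine and 8 were lower. The 2076 tested genes in the subset split into 998 higher and 1078 lower, which is 6.01% and 6.5% of the genes tested.

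**Figure D1:**
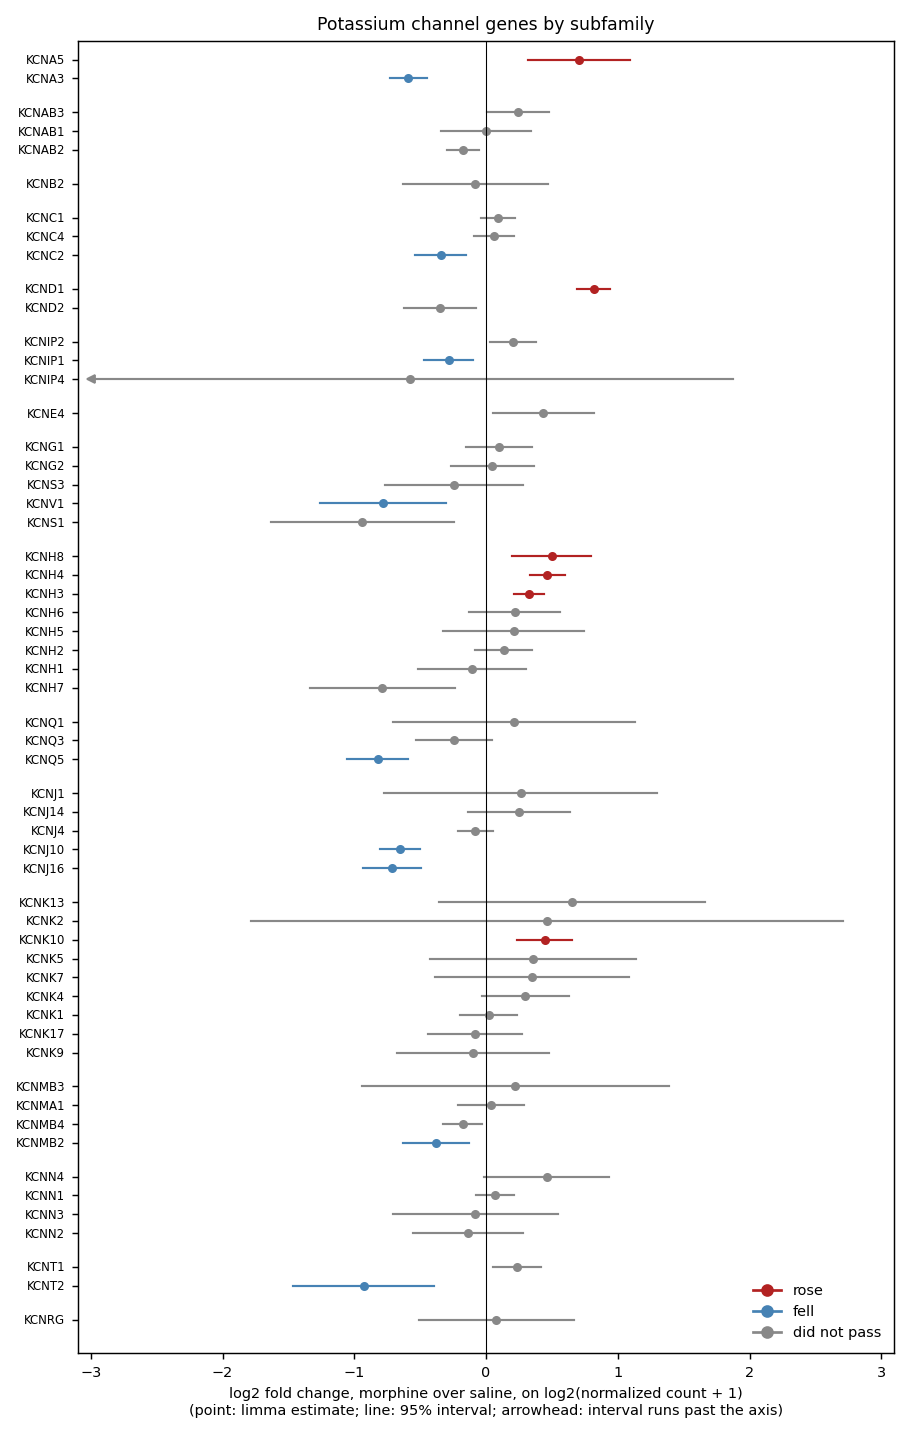
Log2 fold change of 56 of the 60 potassium channel genes, morphine over saline, on the log2(normalized count + 1) scale, grouped by subfamily. Points are limma estimates and lines their 95% intervals, red for 6 genes that rose, blue for 9 that fell and grey for 41 that did not pass. KCND1 lies farthest to the right, and KCNS1, which did not pass, lies just left of KCNT2.

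Calls were fewest among the least counted members. Of the 14 members with a mean from 10 to below 100 normalized counts 1 was called, of the 24 from 100 to below 1000 there were 8, and of the 22 at 1000 or more there were 7. Over all genes the shares called in these ranges were 13.2%, 25.9% and 38.4%. The libraries held 31238653 to 36345095 recovered reads, and the lowest member value was 8 reads in 1 library.

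Some cell type markers differed between the groups too, and their part in the results below was not tested. The counts of calls in this paragraph are to be read against 27.9% of all genes tested. Among genes with a mean of 1000 or more normalized counts that share was 38.4%. A count near these shares does not set a cell type apart from other genes. Falls outnumbered rises among the 14 pan-neuronal markers, with 6 against 3. Their summed level was 387659 to 392754 normalized counts in morphine and 451858 to 460748 in saline libraries, but these markers did not move as one. SNAP25, SYT1, MAP2, NEFL, NEFM and STMN2 fell, by 0.23 (STMN2) to 0.73 (NEFL) on the log2 scale. RBFOX3, TUBB3 and SYN1 rose by 0.22 ± 0.0509, 0.23 ± 0.0559 and 0.25 ± 0.0533. Among 12 astrocyte markers 6 fell and 2 rose, with sums of 307474 to 357120 in morphine and 363423 to 418587 in saline libraries. The most counted of them, SLC1A3 and NDRG2, weigh most in these sums and are given below. For 8 microglia markers the sums were 7949 to 8488 in morphine and 5491 to 5860 in saline libraries, with 4 rises and 2 falls. The counts were 0 rises and 5 falls among 15 excitatory neuron markers, 4 and 1 among 13 inhibitory neuron markers, 4 and 3 among 10 oligodendrocyte markers, 4 and 0 among 6 oligodendrocyte precursor markers, 5 and 5 among 16 endothelial and mural cell markers, 2 and 2 among 4 choroid plexus and ependymal markers, and 1 and 1 among 3 blood cell markers. None of the list genes found in the table was at 0 reads in all libraries. Neurons were present by their defining genes, with SNAP25 at 69525 ± 943 normalized counts with morphine and 101045 ± 4225 with saline (mean ± SD, n = 3 libraries per group), and the myelin gene MBP was counted too, at 202716 ± 883 normalized counts with morphine and 192902 ± 3182 with saline, so the libraries held oligodendrocyte RNA as well. In such bulk RNA, fewer cells of a type and less RNA per cell cannot be told apart.

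**Figure D2:**
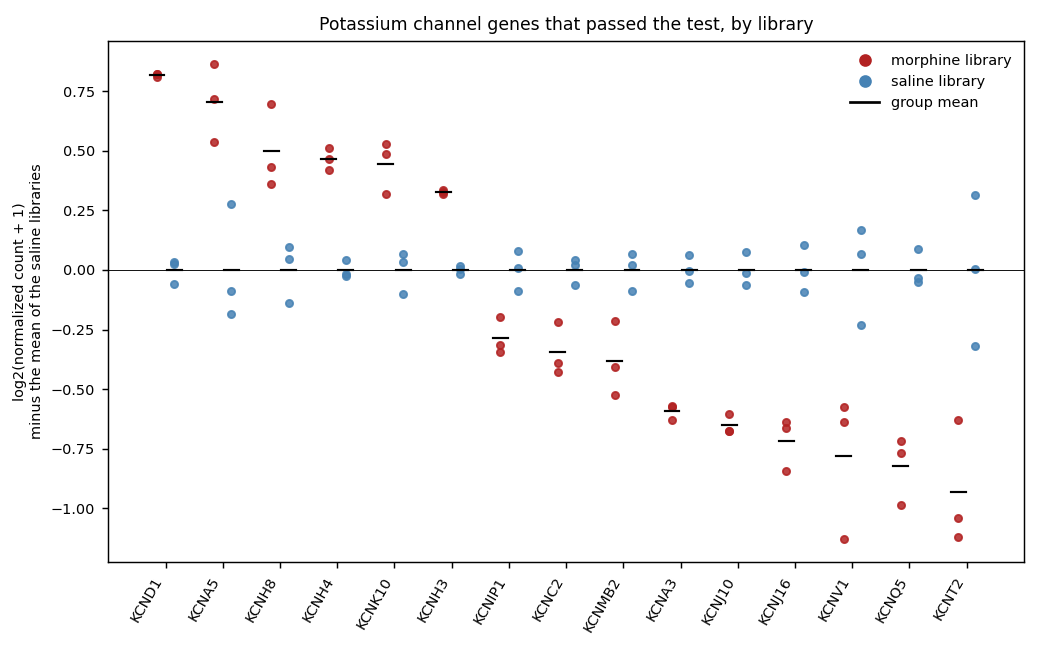
Of the potassium channel genes that passed the test 15 are shown, each library drawn as log2(normalized count + 1) minus the mean of the 3 saline libraries of that gene. Red points are morphine libraries, blue points saline libraries and black bars group means. The groups overlap for none of the 15 genes, which were drawn because they passed. Of all genes tested, 48.7% had groups that do not overlap.

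The A-type channels of the Kv4 group and their partners gave the largest rise. KCND1, a pore subunit of fast-inactivating channels that delay the next spike, had 721, 721 and 716 normalized counts in the morphine libraries, against 417, 392 and 414 in the saline libraries. Its morphine values were almost identical to each other and all lay far above the saline values. The log2 fold change was 0.82 ± 0.0502 (SE), with a limma adjusted p of 0.00192 and values of 0.0108 to 0.0145 when each library was left out in turn. KCND2, also a Kv4 pore gene, which carries the dendritic A-type current of pyramidal neurons in rodents, lay in the other direction but did not pass. KCND2 had 208, 202 and 169 normalized counts in the morphine libraries, against 226, 264 and 248 in the saline libraries, and its log2 fold change of -0.35 ± 0.108 had an interval of -0.62 to -0.08 and a limma adjusted p of 0.0657. The groups of KCND2 did not overlap.

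KCNIP genes encode calcium sensors that bind Kv4 channels and set their surface level and inactivation. KCNIP1 fell by 0.28 ± 0.0724, with 1244, 1351 and 1220.3 normalized counts in the morphine libraries, against 1555, 1638 and 1456 in the saline libraries (limma adjusted p = 0.0403). All 3 morphine values lay below the saline values, but the call was lost whichever library was left out (adjusted p from 0.0535 to 0.113). KCNIP2 did not pass in limma: it had 1571, 1497 and 1575 normalized counts in the morphine libraries, against 1328, 1261 and 1443 in the saline libraries, a log2 fold change of 0.21 ± 0.0689 and a limma adjusted p of 0.0823 (edgeR adjusted p = 0.0492). KCNIP4 had 2094, 1991 and 444 normalized counts in the morphine libraries, against 3215, 3317 and 577 in the saline libraries. Library 3 was low in both groups, and the estimate of -0.58 ± 0.968 had an interval of -3.03 to 1.87, so this design says little about that gene. The estimate without morphine replicate 3 was 0.16 (limma adjusted p = 0.919), with the sign turned. A similar pattern was seen in KCNK2, described with the leak channels.

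**Figure D3:**
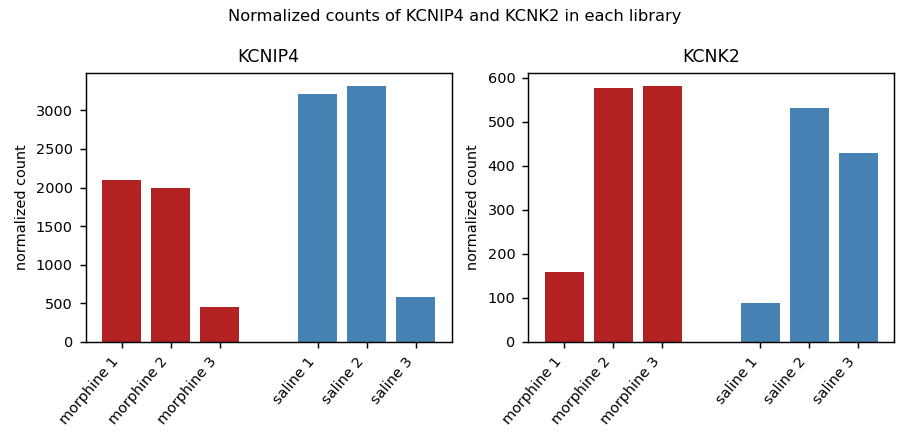
Normalized counts of KCNIP4, a Kv4-binding calcium sensor, and KCNK2, a leak channel, in each morphine library (red) and saline library (blue), on linear axes that start at 0. KCNIP4 was lowest in library 3 of both groups (444 in morphine and 577 in saline), and KCNK2 in library 1 of both groups (159 in morphine and 88.8 in saline).

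The KCNQ genes encode the subunits of the M-current, a slow potassium current that restrains repetitive firing and is shut off by muscarinic receptors. KCNQ5 had 2542, 2106 and 2453 normalized counts in the morphine libraries, against 4029, 4433 and 4082 in the saline libraries, and every morphine value was below every saline value. It fell by 0.82 ± 0.0925 on the log2 scale (limma adjusted p = 0.00518, and 0.0179 to 0.0228 with each library left out). KCNQ3 had 885, 1178 and 1067 normalized counts in the morphine libraries, against 1226, 1233 and 1218 in the saline libraries, with morphine library 1 lowest and the saline libraries close together, and did not pass (-0.24 ± 0.114, interval -0.53 to 0.05, limma adjusted p = 0.174). KCNQ1, better known from the heart, had a mean of 57.4 normalized counts, overlapping groups and a wide interval of -0.71 to 1.13.

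The KCNH family holds 3 branches, and the 3 genes that rose in it were its 3 members of the ELK branch. None of the 8 KCNH genes fell in limma, where KCNH7 alone was lower at an unadjusted p under 0.05. KCNH3, an ELK channel that opens near rest and limits the excitability of hippocampal neurons in mice, was the most counted KCNH gene. KCNH3 had 25782, 26090.4 and 25968 normalized counts in the morphine libraries, against 20902, 20422 and 20745 in the saline libraries, a rise of 0.33 ± 0.0446 (limma adjusted p = 0.00798, and 0.0289 to 0.0361 with each library left out). KCNH4, the next ELK gene, had 815, 841 and 789 normalized counts in the morphine libraries, against 607, 583 and 580.0 in the saline libraries. It rose by 0.46 ± 0.0524 (limma adjusted p = 0.00519), and its call held with each library left out (adjusted p from 0.0197 to 0.0256). KCNH8, the remaining ELK gene, had 625, 495 and 519.8 normalized counts in the morphine libraries, against 398, 411 and 349 in the saline libraries and rose by 0.50 ± 0.117 (limma adjusted p = 0.0329). Morphine library 1 was highest for KCNH8, and the call was lost whichever library was left out (adjusted p from 0.0552 to 0.0833).

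The other KCNH genes did not pass. Among the ERG channels, which carry a slowly deactivating current best known for ending the cardiac action potential, KCNH2 had a log2 fold change of 0.13 ± 0.0843 and KCNH6 one of 0.22 ± 0.137. KCNH7, the ERG gene with the largest estimate, had 49.95, 64.5 and 82.6 normalized counts in the morphine libraries, against 93.7, 128 and 116 in the saline libraries. Its values were lower with morphine in all libraries, with an estimate of -0.79 ± 0.218 and a limma adjusted p of 0.0501, just over the threshold (edgeR adjusted p = 0.0451). It passed without morphine replicate 3 (adjusted p = 0.0422), and in the other fits without 1 library the adjusted p was 0.0654 to 0.133. The EAG genes KCNH1 and KCNH5 had overlapping groups, with estimates of -0.11 ± 0.162 and 0.21 ± 0.212, and KCNH5 passed in limma only without morphine replicate 2 (adjusted p = 0.0319). The difference between the ELK and the other KCNH genes was not tested.

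Among inward rectifiers, both genes of the astrocyte channel fell. KCNJ10 encodes Kir4.1, the main potassium-uptake channel of astrocytes, and KCNJ16 encodes Kir5.1, which joins it in mixed channels. KCNJ10 had 9376, 9356 and 9846 normalized counts in the morphine libraries, against 14841, 15787 and 14305 in the saline libraries. The groups were far apart, and the gene fell by 0.65 ± 0.0603 (limma adjusted p = 0.00361, and 0.015 to 0.0207 with each library left out). KCNJ16 had 249.8, 283 and 288 normalized counts in the morphine libraries, against 484, 446 and 421 in the saline libraries, a fall of 0.72 ± 0.0874 (limma adjusted p = 0.00617, and 0.02 to 0.0261 with each library left out). The summed astrocyte markers were also lower in morphine libraries, as given above, but they did not move as one. The most counted of them, SLC1A3, had 82480 ± 483 normalized counts with morphine and 123564 ± 2137 with saline. NDRG2 varied within groups, at 88706, 90879 and 41925 with morphine and 102283, 43603.5 and 44270 with saline. The sums thus depend strongly on these genes. The water channel gene AQP4 fell by 0.48 ± 0.0541, and the gap junction gene GJA1 fell by 0.94 ± 0.0538. The filament gene GFAP rose by 0.41 ± 0.0482 and the peptide precursor AGT by 0.80 ± 0.0469 (limma adjusted p = 0.0057 and 0.00181). The part of astrocyte RNA in the falls of KCNJ10 and KCNJ16 was not tested.

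The neuronal strong inward rectifier KCNJ4 had 4918, 4801 and 4736 normalized counts in the morphine libraries, against 5291, 4966 and 5036 in the saline libraries. Its morphine values lay just below its saline values, and the estimate of -0.08 ± 0.0517 (interval -0.21 to 0.05) did not pass (limma adjusted p = 0.296). KCNJ14, another strong rectifier, and the renal channel gene KCNJ1 had overlapping groups and estimates of 0.25 ± 0.153 and 0.26 ± 0.41. KCNJ1 was counted at a mean of only 25.6 normalized counts.

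The Kv1 genes KCNA3 and KCNA5 were called in opposite directions. KCNA3, a delayed rectifier found in neurons and known for its role in T cells and microglia, had 3128, 3010.4 and 3131 normalized counts in the morphine libraries, against 4479, 4863 and 4637 in the saline libraries. It fell by 0.59 ± 0.0553 (limma adjusted p = 0.00366, and 0.0153 to 0.0207 with each library left out), with groups that lay far apart. In the same libraries the summed microglia markers were higher with morphine, as given above, but they did not move as one. CSF1R, C1QC, TREM2 and ITGAM rose by 0.87 ± 0.0633, 1.01 ± 0.119, 1.69 ± 0.118 and 1.16 ± 0.149. P2RY12 fell by 0.47 ± 0.0582 and PTPRC by 0.51 ± 0.105, while CD68 and TYROBP did not pass (0.08 ± 0.101 and 0.45 ± 0.143). The summed blood cell markers were 75.4 to 84.0 normalized counts in morphine and 71.2 to 106.6 in saline libraries. That sum held 5 genes, of which 3 were tested, all of them low. In limma the T cell marker CD3E fell by 0.72 ± 0.154 and the B cell marker MS4A1 rose by 1.81 ± 0.267. The platelet gene PPBP did not pass (-0.80 ± 0.477). The fall of CD3E did not pass in edgeR (adjusted p = 0.0971) and held in 2 of the 6 fits without 1 library. The rise of MS4A1 passed in edgeR (adjusted p = 0.0175) and held in all 6 fits. The part of these cells was not tested. KCNA5, a delayed rectifier of the atrium and of vascular muscle, was a low gene with 76.5, 60.8 and 69.2 normalized counts in the morphine libraries, against 36.5, 39.1 and 50.6 in the saline libraries. It rose by 0.71 ± 0.154 (limma adjusted p = 0.0265), but not in edgeR (adjusted p = 0.0748). Of the fits without 1 library it passed only without saline replicate 3 (adjusted p = 0.0233), and the other 5 gave 0.0505 to 0.0813. Of the 16 endothelial and mural markers 5 rose and 5 fell. Among those of endothelial cells, FLT1 fell by 0.61 ± 0.0623, PECAM1 by 0.52 ± 0.0697, TEK by 0.75 ± 0.102 and EMCN by 0.31 ± 0.0777. VWF, CDH5 and SLC2A1 did not pass (-0.05 ± 0.0755, -0.18 ± 0.0692 and 0.65 ± 0.357). The collagen genes COL1A1 and COL1A2, also on that list, rose by 3.54 ± 0.141 and 2.34 ± 0.139. Among those of mural cells, ACTA2 rose by 0.78 ± 0.0521, MYH11 by 0.77 ± 0.113 and TAGLN by 0.54 ± 0.0997, RGS5 fell by 0.68 ± 0.0569, and PDGFRB and NOTCH3 did not pass (-0.03 ± 0.049 and -0.07 ± 0.072). Their part was not tested either. The summed endothelial and mural markers were 21128 to 26643 normalized counts in morphine and 21246 to 22641 in saline libraries, which overlap.

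The KCNAB genes encode cytoplasmic beta subunits that speed inactivation of Kv1 channels and guide them to axons. In limma 0 of the 3 passed, although 2 had an unadjusted p under 0.05. KCNAB2, the member of the whole family with the most normalized counts, had 31829.5, 31495 and 31941 normalized counts in the morphine libraries, against 35954, 34741 and 36692 in the saline libraries. Its values were lower with morphine in every library, the estimate was -0.17 ± 0.0482 and the limma adjusted p was 0.0513, while edgeR called it (adjusted p = 0.000979). KCNAB3 had an estimate of 0.24 ± 0.0923 (limma adjusted p = 0.109) with overlapping groups. KCNAB1 had one of -0.00 ± 0.134 with an interval of -0.34 to 0.34.

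Kv3 channels allow very fast firing and are prominent in parvalbumin interneurons. KCNC2 had 4082, 3523 and 3614 normalized counts in the morphine libraries, against 4813, 4878 and 4543 in the saline libraries. It fell by 0.35 ± 0.0768 (limma adjusted p = 0.0279), with morphine library 1 nearest to the saline values. It passed without morphine replicate 1 (adjusted p = 0.0297), but not when any other library was left out (adjusted p from 0.0558 to 0.086). KCNC1 was slightly higher with morphine, at 2628 ± 44.8 normalized counts with morphine and 2474 ± 80.5 with saline, and did not pass (estimate 0.09 ± 0.0511, interval -0.04 to 0.22). The estimate of KCNC4 was 0.06 ± 0.06. PVALB, the parvalbumin gene, did not pass (estimate 0.10 ± 0.0894, limma adjusted p = 0.432). Of the 13 inhibitory neuron markers tested, 4 rose and 1 fell. SST rose by 0.53 ± 0.0524, NPY by 0.77 ± 0.0681, LAMP5 by 0.43 ± 0.087 and CCK by 0.20 ± 0.0472, while VIP fell by 0.57 ± 0.0605. The part of interneuron RNA in the fall of KCNC2 was not tested.

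Kv2 channels are the main delayed rectifiers of the neuronal soma, and KCNG, KCNS and KCNV subunits form no channel alone but change Kv2 channels when they join them. KCNB2, a Kv2 pore gene, did not pass (estimate -0.08 ± 0.216).

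Among the 5 silent subunits 1 fell and 0 rose in limma, and 0 were higher at an unadjusted p under 0.05 or in edgeR. KCNV1 had 177, 249.7 and 260.4 normalized counts in the morphine libraries, against 407, 436 and 331 in the saline libraries, with morphine library 1 lowest, and fell by 0.78 ± 0.189 (limma adjusted p = 0.0352). Of the fits without 1 library it passed only without saline replicate 3 (adjusted p = 0.0489), and the other 5 gave 0.0579 to 0.1. KCNS1 had the lowest log2 estimate of all 60 members, -0.94 ± 0.274, with 201, 162 and 98 normalized counts in the morphine libraries, against 296, 297 and 259 in the saline libraries. Morphine library 3 was far below libraries 1 and 2, and the gene did not pass in limma (adjusted p = 0.0571) but did in edgeR (adjusted p = 0.0222). It passed in limma without morphine replicate 1 (adjusted p = 0.0468) and without morphine replicate 3 (adjusted p = 0.0442). KCNS3, KCNG1 and KCNG2 had overlapping groups, with estimates of -0.24 ± 0.207, 0.10 ± 0.0982 and 0.05 ± 0.125.

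The calcium- and sodium-activated channels had 2 falls. BK channels, which open on voltage and calcium together, have 1 pore gene, KCNMA1, and it had 953, 1037 and 1068 normalized counts in the morphine libraries, against 889, 1103 and 994 in the saline libraries. The groups overlapped and the estimate was 0.04 ± 0.0991 (interval -0.21 to 0.29). KCNMB2, a beta subunit that makes BK channels inactivate, had 412, 472 and 380.5 normalized counts in the morphine libraries, against 573, 515 and 555 in the saline libraries. It fell by 0.38 ± 0.0984 (limma adjusted p = 0.0419), passed without morphine replicate 2 (adjusted p = 0.037) and did not pass when any other library was left out (adjusted p from 0.0726 to 0.111). KCNMB4, the main neuronal beta subunit, had 4636, 4542 and 4542 normalized counts in the morphine libraries, against 5491, 5069.8 and 4978 in the saline libraries. All its morphine values were below its saline values, and it passed in edgeR (adjusted p = 0.0197) but not in limma (estimate -0.18 ± 0.0583, adjusted p = 0.0772). KCNMB3 was low and variable, with an estimate of 0.22 ± 0.46.

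KCNT genes encode channels opened by sodium. KCNT2 had 164, 218 and 155 normalized counts in the morphine libraries, against 338, 271 and 419.7 in the saline libraries, and although its saline values spread widely the groups did not overlap. It fell by 0.93 ± 0.211 (limma adjusted p = 0.0297). It passed without morphine replicate 2 (adjusted p = 0.0416) and without saline replicate 2 (adjusted p = 0.0363) and did not pass when any other library was left out (adjusted p from 0.0663 to 0.0886). KCNT1 had 2479, 2798 and 2673 normalized counts in the morphine libraries, against 2285, 2129 and 2339 in the saline libraries. Its morphine values all lay above its saline values, with an estimate of 0.23 ± 0.0715 that did not pass in limma (adjusted p = 0.0645) and passed in edgeR (adjusted p = 0.0217).

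The calcium-gated SK and IK genes (KCNN), whose channels shape the afterhyperpolarization, gave no call. In limma 0 of 4 passed, 0 had an unadjusted p under 0.05, and 0 passed in edgeR. KCNN1, the most counted, had 6309, 5994 and 5918 normalized counts in the morphine libraries, against 5823, 5583 and 6010.2 in the saline libraries, with overlapping groups and an estimate of 0.07 ± 0.0567 (interval -0.08 to 0.21). The intervals of KCNN2, KCNN3 and KCNN4 were -0.56 to 0.28, -0.71 to 0.55 and -0.01 to 0.93. The last of these does not exclude a rise of the size seen in KCND1.

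The tandem-pore leak channels (KCNK) set the resting conductance, and 1 of 9 rose while 0 fell in limma, also at an unadjusted p under 0.05, and edgeR called none of them. KCNK10, of the mechanosensitive TREK group, had 135, 156 and 152 normalized counts in the morphine libraries, against 101, 113 and 111 in the saline libraries. It rose by 0.44 ± 0.0838 (limma adjusted p = 0.0185), with no overlap between groups, but not in edgeR (adjusted p = 0.064). In limma the call was lost when either morphine replicate 2, morphine replicate 3 or saline replicate 1 was left out (adjusted p from 0.0507 to 0.0615) and held without morphine replicate 1 (adjusted p = 0.0289), saline replicate 2 (adjusted p = 0.0436) or saline replicate 3 (adjusted p = 0.0489). KCNK2, its close relative, had 159, 576 and 581 normalized counts in the morphine libraries, against 88.8, 532 and 428 in the saline libraries. Library 1 was low in both groups, and the estimate of 0.46 ± 0.888 had an interval of -1.78 to 2.71 and turned to -0.34 without saline replicate 1. KCNK4, the third gene of that group, had an estimate of 0.30 ± 0.13 (limma adjusted p = 0.151), with all morphine values above the saline values.

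KCNK1, the KCNK gene with the most normalized counts, had 1455, 1381 and 1362 normalized counts in the morphine libraries, against 1275, 1529.6 and 1349.9 in the saline libraries. The groups overlapped, and the estimate of 0.02 ± 0.0842 changed sign without morphine replicate 1 or saline replicate 1 (-0.01 and -0.04). KCNK13, a channel of microglia, had an estimate of 0.65 ± 0.4 and an interval of -0.36 to 1.66 that spans 0, with 52.1, 45.4 and 75.9 normalized counts in the morphine libraries, against 20.7, 55.1 and 39 in the saline libraries. The other 4 genes, KCNK5, KCNK7, KCNK9 and KCNK17, had overlapping groups and estimates of 0.36 ± 0.308, 0.35 ± 0.29, -0.10 ± 0.227 and -0.08 ± 0.141.

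Each of the last members stands alone in its group. KCNE4, a single-pass accessory subunit that dampens some Kv1 channels and KCNQ1, had 87.2, 99 and 101 normalized counts in the morphine libraries, against 62.2, 87.2 and 64.3 in the saline libraries and did not pass (estimate 0.43 ± 0.151, limma adjusted p = 0.0903). It passed in limma without saline replicate 2 (adjusted p = 0.0267). KCNRG, a soluble protein that hinders the assembly of voltage-gated channels and is no channel subunit, had 78.6, 81.7 and 84.5 normalized counts in the morphine libraries, against 56.2, 106 and 77 in the saline libraries. The groups overlapped, and the estimate of 0.08 ± 0.233 turned to -0.15 without saline replicate 1.

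**Figure D4:**
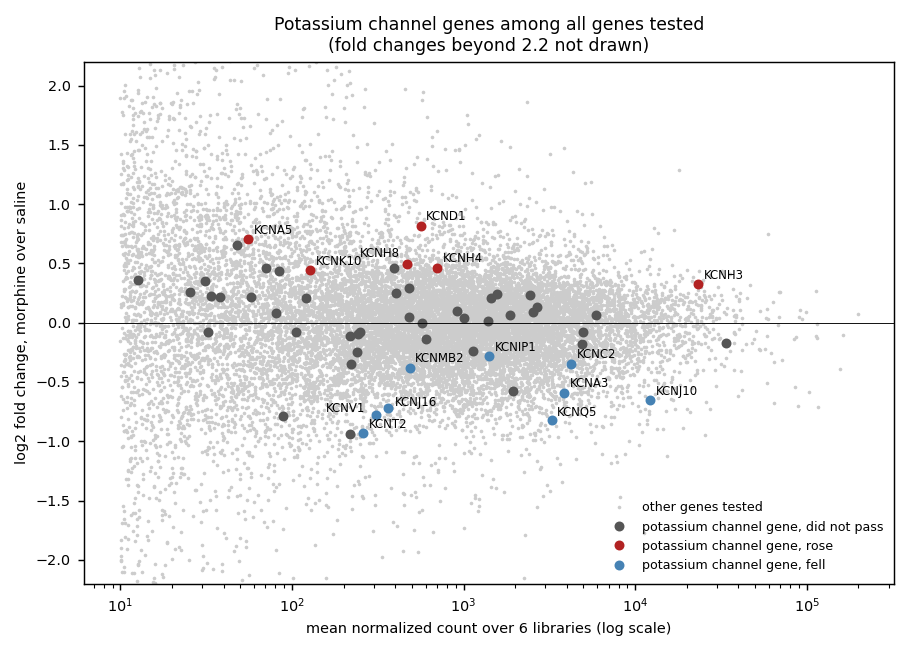
Log2 fold change, morphine over saline, against the mean normalized count over the 6 libraries (log scale) for the 16595 genes tested (grey, without those beyond the vertical axis), with 56 potassium channel genes drawn larger: 6 that rose in red, 9 that fell in blue and 41 that did not pass in dark grey. The potassium channel genes lie within the cloud of the other genes at their abundance.

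Genes that bind, place or modify these channels were counted beside them. Of 27 such partners 19 were tested, of which 2 rose and 5 fell in limma, against the 27.9% of all genes that were called. Most of these partners had a mean of 1000 or more normalized counts, a range where 38.4% of all genes were called. The adhesion gene CNTN2, which gathers Kv1 channels beside nodes of Ranvier, rose by 0.33 ± 0.0516, with 8361, 8476 and 8598 normalized counts in the morphine libraries, against 6610.1, 6604 and 7026 in the saline libraries (limma adjusted p = 0.0112). SPTBN4, the spectrin of nodes and axon initial segments, rose by 0.27 ± 0.0528 (limma adjusted p = 0.0203). ANK3, the ankyrin that holds KCNQ channels at the initial segment, fell by 0.31 ± 0.0853 (limma adjusted p = 0.0498). NEDD4L, a ubiquitin ligase that removes KCNQ channels from the membrane, fell by 0.28 ± 0.0507. LGI1, a secreted protein that acts on Kv1 channels and synapses, fell by 0.29 ± 0.0772, and the gene of the channel-binding scaffold DLG1 by 0.45 ± 0.0856. The call of LGI1 was lost whichever library was left out (adjusted p from 0.0578 to 0.125), and so was that of ANK3 (0.0761 to 0.128). Those of SPTBN4, NEDD4L and DLG1 held in 1, 1 and 3 of these 6 fits, with highest adjusted p-values of 0.0688, 0.055 and 0.0625, while that of CNTN2 held in all 6.

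The Kv4 partners DPP6 and DPP10, which speed A-type channels, did not pass, with estimates of 0.13 ± 0.0524 and -0.18 ± 0.0639. Nor did the sulfonylurea receptor genes ABCC8 and ABCC9 (0.10 ± 0.0482 and -0.19 ± 0.177), of which ABCC9 is also counted among the mural markers. CNTNAP2, the Kv1 partner at juxtaparanodes, had an estimate of 0.17 ± 0.0889 (limma adjusted p = 0.205).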

How the data were processed

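Polyadenylated RNA was sequenced in 6 libraries, whose titles give group and replicate number. Per the submitters' processing notes, hg19 (a human build), StringTie, Bowtie2 2.1.0 and DESeq2 1.18.1 were used, with no role stated, while the identifiers are those of rhesus Ensembl genes. The build, annotation and strand setting of the counting are not given in the sources used here, so no coordinates are printed, and overlapping genes cannot be told apart.

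The authors deposited normalized counts, a signal made from reads scaled by a factor for each library, per the file headers. Their log2 fold changes, test statistic (a score) and p-values, raw and adjusted, are deposited beside them. Within each library 100% of values were whole multiples of 1 value within 0.001, which gave back reads, 31238653 to 36345095 with morphine and 32188657 to 34495925 with saline. The limit for a count of 0 covers counting error only. Gene symbols matched 66.6% of identifiers.

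Groups were compared by limma 3.58.1 (R 4.3.3) using log2(value + 1) of genes with a mean of at least 10, with group as the only term, no trend, two-sided, and Benjamini-Hochberg adjustment over all genes. The prior degrees of freedom were 1.27. The SE given with an estimate is limma's, which mixes a gene's own spread with that of other genes. For genes whose libraries lay close together, such as KCNH3, it rests largely on the spread of other genes. Intervals are limma's 95% intervals, not adjusted. The scripts were tested on simulated data. Alternatives were edgeR 4.0.16 and DESeq2 1.42.0 on the recovered reads, the authors' deposited comparison, other scalings, filters and pseudocounts, an intensity trend, a stricter threshold, the replicate number as a block and each library left out. Figures were drawn with matplotlib 3.10.9.

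The members and gene lists were chosen with earlier results of these data known. Values per library are given for the called members named and for the most counted gene of most subfamilies, and for other members named after their values were seen. Normalized counts are not per length and do not rank genes by level. A few members and partners enter the counts but are not reported here by name. Within groups, libraries differed by more than sampling noise (chi-square per gene over pairs with means of 17.5 to 23.8 and medians of 2.60 to 3.19).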

Additional observations from a re-analysis of the deposited data

How the results depend on the processing

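Of the 16 called members, KCND1, KCNH4, KCNQ5, KCNJ10 and KCNA3 kept their direction and their call in each of the 18 alternatives. Potassium channel genes that rose and fell numbered 7 and 9 as reported, 4 and 4 without a filter, and 3 and 4 at an adjusted p under 0.01. There were 14 falls with a minimum mean of 50, with an intensity trend, in edgeR and in DESeq2. Over the 6 fits without 1 library 3 to 5 members rose and 4 to 6 fell. For all genes the counts were 1363 rises and 1630 falls without a filter, 634 and 898 at an adjusted p under 0.01, and 1072 to 1497 and 1464 to 1684 without 1 library. For the partner list they were 1 and 3 without a filter, 0 and 0 at an adjusted p under 0.01 (12 at an unadjusted p under 0.05 in limma, and 4 and 8 in edgeR), 4 and 8 with an intensity trend, in edgeR, in DESeq2 and in the authors' deposited comparison, 8 falls with a minimum mean of 50, and 1 to 2 and 0 to 3 without 1 library. For 15 of the 60 members, of which 0 were called and 0 had groups that did not overlap, the estimate changed sign in at least 1 of the 6 fits without 1 library. Those members, with the range of the estimate over these fits, were KCNIP4 (-1.41 to 0.16), KCNK2 (-0.34 to 1.08), KCNK1 (-0.039 to 0.092), KCNRG (-0.15 to 0.31), KCNAB1 (-0.11 to 0.077), KCNB2 (-0.23 to 0.10), KCNG2 (-0.058 to 0.15), KCNH1 (-0.23 to 0.058), KCNJ1 (-0.044 to 0.60), KCNK9 (-0.29 to 0.086), KCNK17 (-0.21 to 0.018), KCNMA1 (-0.040 to 0.11), KCNMB3 (-0.11 to 0.71), KCNN3 (-0.32 to 0.13) and KCNQ1 (-0.099 to 0.50). KCNAB1 (-0.00 as reported) was also above 0 with upper-quartile scaling (0.014), in edgeR (0.0025), in DESeq2 (0.0040) and in the authors' deposited comparison (0.0019). The cause was not tested.

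Replicate numbers are shared between groups, but same-numbered libraries did not deviate together (correlations over genes of -0.056, -0.004 and -0.028), so the numbers were not taken as pairs. With the replicate number as a block, 3 members rose and 3 fell, 681 and 896 of all genes, and 0 and 0 of the partner list (8 at an unadjusted p under 0.05). No library correlated best with its own number.

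Of the 14 members with a mean under 100 normalized counts 1 was called, against 13.2% of all genes tested in that range, and the part of depth was not tested.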

Other observations

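KCNIP4 and KCNK2 each had 1 library per group far below the rest. In KCNIP4 the other 2 libraries averaged 2042 normalized counts with morphine and 3266 with saline, which is 4.60 and 5.66 times library 3 of the same group. On the log2 scale these other libraries differed by -0.68, morphine minus saline. In KCNK2 the other 2 libraries averaged 579 normalized counts with morphine and 480.2 with saline, 3.63 and 5.41 times library 1 of the same group, and differed by 0.27. Over all 16595 genes, both libraries numbered 1 lay below 0.5 times the lowest of the other 4 in 10 genes, both numbered 2 in 8 and both numbered 3 in 13. For pairs of libraries with different numbers the same count was 6 to 25 genes. These genes were singled out after their values had been seen.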
